A study of Mus musculus with 19 samples.

Results

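The glutathione transferases and the enzymes of glutathione turnover were followed across the 4 groups of obstructed mouse kidneys. The members were the protein-coding genes of the count table whose symbols begin with Gsta, Gstk, Gstm, Gsto, Gstp, Gstt or Gstz, together with Mgst1 to Mgst3 and 15 named enzymes of glutathione synthesis, recycling and breakdown. This rule used names only and gave 40 members among the 54532 genes of the table, 25 of them transferases. RNA-seq had been run on whole left kidneys of male C57BL/6J mice aged 8 to 9 weeks, taken on day 12 after unilateral ureteral obstruction (UUO), in which the ureter is tied and the kidney becomes inflamed and fibrotic. All 19 kidneys were labelled as obstructed, so no value below compares UUO with an unoperated kidney. Recombinant CD5L (rCD5L, a circulating macrophage protein also called AIM) was injected each day into the abdomen of 5 WT and 5 CD5L KO mice at 0.5 mg per mouse, and PBS into 5 WT and 4 CD5L KO mice. The sources used here do not say whether the WT and CD5L KO mice were littermates, and p-values measure the spread between these kidneys, each from a separate mouse.

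Glutathione is the main soluble thiol of the cell. Glutathione transferases attach it to reactive electrophiles, among them the aldehydes that lipid peroxidation makes, and the conjugates are trimmed outside the cell by gamma-glutamyl transferase and peptidases and excreted as mercapturates. The kidney is the organ where this breakdown is most active, because the brush border of the proximal tubule carries large amounts of gamma-glutamyl transferase and aminopeptidase N. Several transferase genes are classical targets of the transcription factor Nrf2, which binds the antioxidant response element in their promoters.

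The total count per kidney lay between 17917491 and 23847090, and Cd5l had 0 counts in each of the 9 CD5L KO kidneys and 3 to 15 counts in the WT kidneys. The proximal tubule was represented, since all 49 markers of the study's proximal tubule list were detected. A single kidney stood apart from the other 18. In kidney 4 of the rCD5L-injected CD5L KO group, the proximal tubule markers summed to 48198 CPM (counts scaled to library size with TMM factors), against 4288 to 8849 in the other 18 kidneys, and 48 of the 49 markers were highest there. Its fibroblast markers summed to 3229 CPM against 6575 to 11202 in the others, its macrophage markers to 4157 against 8777 to 13222, and the markers of the study's failed-repair proximal tubule list to 3731 against 6140 to 8417. Its sum for the injured proximal tubule list was the highest, at 15856 against 4108 to 6453. For the study's acute-injury proximal tubule list it was 9620 against 7079 to 9917. That this kidney was obstructed was taken from its label and was not tested. Kidney 3 of the same group had the next highest level of several members. For this reason the main counts, medians and leading fold changes that use this group are repeated without kidney 4 or without kidneys 3 and 4. The proximal tubule sum of kidney 3, 7904 CPM, did not stand apart. Since kidney 3 was picked for its member levels, leaving it out lowers many values of this group by construction. Such values show only how far a result rests on these kidneys. In whole tissue, fewer cells of a type and less RNA per cell cannot be told apart.

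The levels of the members spanned several orders of magnitude. On the FPKM scale, which is per length of the gene and allows genes to be compared, the mean over 19 kidneys ran from 0.0321 for Gstm3 to 204 for Gstm1. The cytosolic transferase families that conjugate electrophiles supplied most of the abundant members, with Gstm1 followed by Gstp1 at 78.4 FPKM, Gstm5 at 78.1 and Gsta2 at 76.0. Among the membrane-bound transferases of the endoplasmic reticulum and mitochondria, Mgst3 stood at 64.0 FPKM and Mgst1 at 52.7, whereas Mgst2 had 0.273.

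Ggt1, the gamma-glutamyl transferase of the brush border, had a mean of 79.9 FPKM, which was raised by kidney 4, with its 1676 CPM. The group means were 62.5 FPKM in WT mice given PBS, 49.2 in WT mice given rCD5L and 63.6 in CD5L KO mice given PBS. In WT mice given PBS, Ggt1 measured 44.7, 61.4 and 86.8 FPKM in the lowest, the median and the highest kidney.

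The leading members of the other families were Gstt1 of the theta class at 63.4 FPKM and Gsto1 of the omega class, which also reduces dehydroascorbate, at 47.5. Gstz1, the isomerase of tyrosine breakdown, had 15.8 FPKM and the mitochondrial and peroxisomal Gstk1 14.0. Of the recycling enzymes, Gsr, which returns oxidized glutathione to its reduced form with NADPH, had 32.7 FPKM. Hagh and Glo1, the enzymes of the glyoxalase pathway that clears methylglyoxal with the help of glutathione, were close to each other at 42.2 and 41.0 FPKM, and Glrx, the cytosolic glutaredoxin, had 4.49. Gstm3 and Gstt4 were at 0 counts in several kidneys and were not tested in any comparison.

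**Figure D1:**
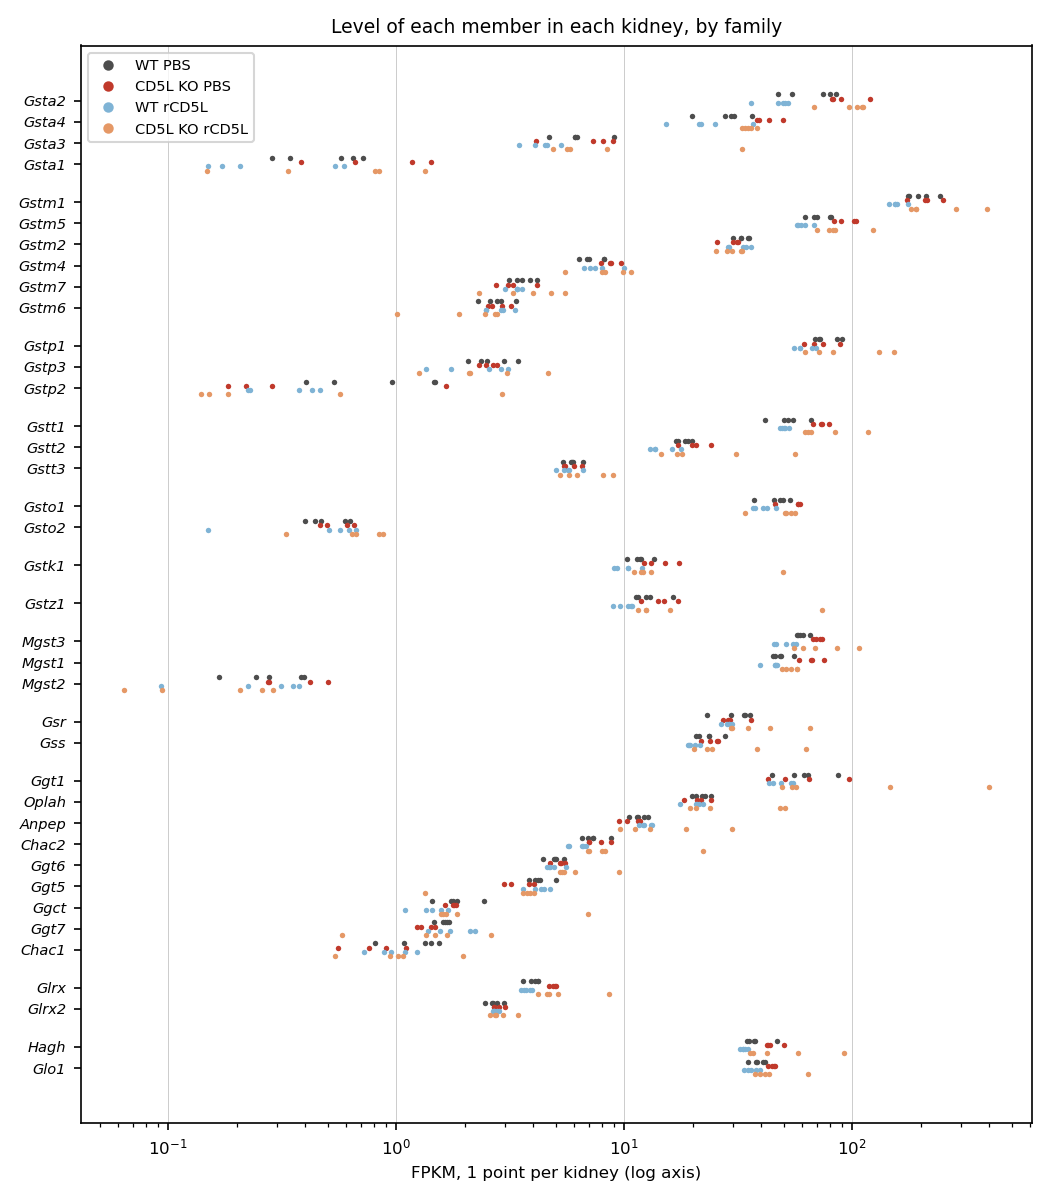
FPKM of each member in each of the 19 kidneys on a log axis, ordered by family and within a family by mean level, with colours for the 4 groups; Gstm3 and Gstt4, at 0 counts in some kidneys, are left out. Gstm1 leads at a mean of 204 FPKM, and the isolated orange points far to the right, as for Ggt1, Gstz1, Gstk1 and Gsta3, are kidney 4 of the rCD5L-injected CD5L KO group.

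Most members lie in clusters of near relatives, and in some of these the reads of a member cannot be fully separated from those of a copy. The 7 mu genes lie on chromosome 3 of GRCm38 between 107895821 and 108044894, the 4 theta genes with Ggt1 and Ggt5 on chromosome 10 between 75561604 and 75837424, and Gsta4, Gsta1 and Gsta2 on chromosome 9 between 78182774 and 78355788. Of the 150-base windows of the annotated Gstp1 transcripts, 41.8% were also present, unchanged, in Gstp2 or the pseudogene Gstp-ps, and for Gsta1 73.7% were shared with Gsta2 and 2 further genes. The share was 26.8% for Gsta2, 21.7% for Gstt3, 4.63% for Glo1 and 3.64% for Gstm5. How reads with several matches were counted is not given in the sources used here, so the values of Gstp1, Gstp2, Gsta1, Gsta2 and Gstt3 are uncertain to that extent.

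In CD5L KO kidneys given PBS, 7 members were higher than in WT kidneys given PBS and none was lower past the threshold. They were the membrane-bound transferases Mgst1 and Mgst3, the cytosolic transferases Gsta4, Gstt1 and Gstm5, the glutaredoxin Glrx and the glyoxalase Glo1. The 7 made up 18.4% of the 38 members tested, against 10.5% of all 17579 genes tested that were called in either direction, 5.13% called higher and 5.4% called lower (edgeR, adjusted p under 0.05). DESeq2 called the same 7, which were 20.6% of the 34 members to which it gave an adjusted p, against 17.8% of genes called in either direction and 8.78% called higher. Their groups did not overlap, which was also true of 7.26% of all genes in the direction of higher CD5L KO values, while 0 members and 6.84% of genes separated downward. Over the 38 members tested the median log2 fold change was 0.08, against 0.00 (-0.0046) over all genes, and 25 of the 38 were above 0 (65.8%, against 49.3% of all genes). With 1 kidney left out the median of the members ran from 0.074 to 0.17, and it was 0.17 without CD5L KO kidney 1 and 0.15 without WT kidney 3.

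Mgst1 (ENSMUSG00000008540, chromosome 6, 138140316 to 138156755), a transferase of the endoplasmic reticulum and outer mitochondrial membrane that also reduces lipid hydroperoxides, had the smallest adjusted p. It measured 166, 164, 187 and 145 CPM in the 4 CD5L KO kidneys and 118, 111, 137, 112 and 121 CPM in the 5 WT kidneys. Every CD5L KO kidney lay above every WT kidney. The log2 fold change was 0.46 ± 0.080 (SE), between means of 165 ± 17.2 (SD, n = 4) and 119.7 ± 10.6 CPM (n = 5), with an adjusted p of 0.00677 from edgeR.

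Mgst3 (ENSMUSG00000026688), its relative with leukotriene C4 synthase activity, was at 97.8, 101, 94.3 and 91.4 CPM in CD5L KO kidneys and at 81.0, 78.2, 87.2, 78.9 and 77.1 CPM in WT kidneys. The spread within each group was small (SD 4.04 and 4.01 CPM) and the change modest, 0.25 ± 0.053 on the log2 scale (adjusted p = 0.0134, edgeR). The third member of this class, Mgst2, is a low gene with 1.68 ± 0.517 CPM in CD5L KO and 1.32 ± 0.428 in WT kidneys, which overlapped.

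Gsta4 (ENSMUSG00000032348, chromosome 9), the alpha-class transferase that conjugates 4-hydroxynonenal, gave the largest of the 7 fold changes. Its values were 59.7, 68.0, 61.2 and 77.5 CPM in CD5L KO kidneys against 55.9, 45.7, 30.9, 46.8 and 42.9 CPM in WT kidneys. The lowest CD5L KO kidney lay just above the highest WT kidney, and the log2 fold change was 0.58 ± 0.14 (adjusted p = 0.0215, edgeR). This call was lost in 2 of the 9 fits that left out 1 kidney. The 3 other alpha members also had positive fold changes that did not pass, with Gsta2 at 0.46 ± 0.17 (136 ± 26.3 against 98.3 ± 23.6 CPM, adjusted p = 0.101, edgeR). Without a filter on low counts Gsta2 was called as well.

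Gstt1 (ENSMUSG00000001663, chromosome 10), a transferase that acts on small halogenated compounds, measured 149.6, 139.9, 128 and 138 CPM in CD5L KO kidneys and 97.2, 78.0, 124, 93.4 and 103 CPM in WT kidneys. All 4 CD5L KO kidneys exceeded the highest WT kidney, which was kidney 3 (log2 fold change 0.48 ± 0.11, adjusted p = 0.0149, edgeR). Its neighbours Gstt2 and Gstt3 had fold changes of 0.17 and -0.0040 and did not pass.

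Gstm5 (ENSMUSG00000004032, chromosome 3), a mu-class transferase, was at 142, 161, 164 and 132 CPM in CD5L KO kidneys and at 124, 107, 126, 96.1 and 109.6 CPM in WT kidneys. The groups did not overlap and the log2 fold change was 0.41 ± 0.090 (adjusted p = 0.0155, edgeR). Gstm5 overlaps 4933431E20Rik on the other strand, and the strand setting of the counting is not given in the sources used here. Among the other 5 mu members tested the fold changes ran from -0.14 for Gstm2 to 0.27 for Gstm4, and the most abundant, Gstm1, measured 386 ± 57.4 against 360.3 ± 48.7 CPM, a difference within the spread (log2 fold change 0.09 ± 0.11).

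Glrx (ENSMUSG00000021591, chromosome 13), which removes glutathione from protein thiols in the cytosol, had 33.7, 31.9, 33.0 and 34.0 CPM in CD5L KO kidneys and 28.0, 27.4, 28.2, 26.0 and 24.2 CPM in WT kidneys. The 4 CD5L KO values were close together (SD 0.903 CPM) and all were above WT (log2 fold change 0.30 ± 0.063, adjusted p = 0.0121, edgeR). The mitochondrial glutaredoxin Glrx2 had a fold change of 0.06 ± 0.068.

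Glo1 (ENSMUSG00000024026, chromosome 17), which converts the adduct of methylglyoxal and glutathione, had 109, 107, 109.8 and 102 CPM in CD5L KO kidneys against 97.1, 90.3, 96.1, 82.1 and 90.7 CPM in WT kidneys. It was the smallest of the 7 changes, 0.22 ± 0.058 (adjusted p = 0.0294, edgeR), again without overlap, and the call was lost in 6 of the 9 fits that left out 1 kidney. Hagh, the next enzyme of that pathway, had a similar fold change of 0.24 ± 0.088 but overlapping groups, since WT kidney 3 at 109 CPM lay above 3 of the CD5L KO kidneys (adjusted p = 0.108, edgeR). With a replicate block, or without WT kidney 3, Hagh was called higher.

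**Figure D2:**
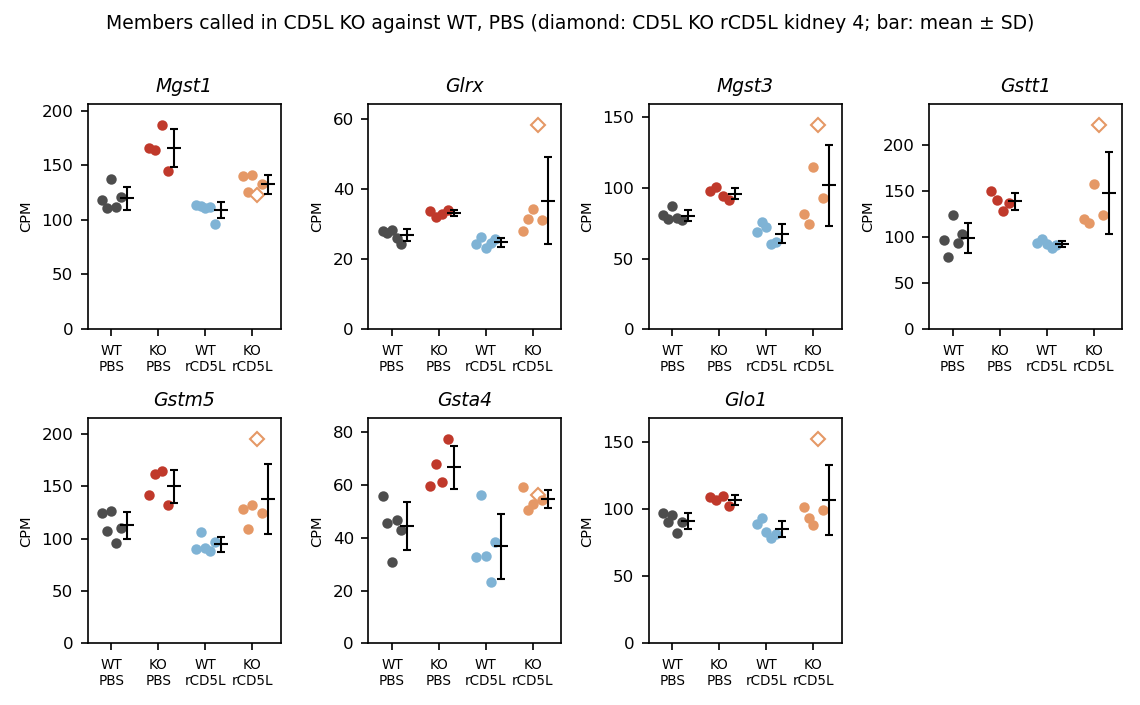
CPM (TMM-scaled) of the 7 members called for genotype in PBS-injected mice, with 1 point per kidney in all 4 groups and the mean ± SD beside them; the axis starts at 0. The 4 CD5L KO kidneys given PBS lie above all 5 WT kidneys given PBS in each panel, and the open diamond, kidney 4 of the rCD5L-injected CD5L KO group, is the highest point for Glrx, Mgst3, Gstt1, Gstm5 and Glo1 but not for Mgst1 or Gsta4.

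Among the members of glutathione synthesis, reduction and the gamma-glutamyl cycle none was called, and whether they differed from the transferases was not tested. Gss, which completes glutathione synthesis, and Gsr had log2 fold changes of 0.06 ± 0.083 and -0.03 ± 0.12. Of the 9 members of the gamma-glutamyl cycle 3 were above 0 and 0 were called, a count from which nothing can be read in so small a group where 10.5% of all genes were called. Ggt1 ranged from 179.7 to 407 CPM in CD5L KO and from 185 to 362 CPM in WT kidneys. The 3 lowest fold changes of members with mean log2 CPM of 1 or more belonged to this group. Chac1, an intracellular glutathione-degrading enzyme of the stress response, had -0.57 ± 0.25 (1.68 ± 0.464 against 2.48 ± 0.579 CPM), Ggt5, which cleaves leukotriene C4 as well as glutathione, had -0.28 ± 0.11, and Ggt7 had -0.24 ± 0.12. None of these 3 passed (adjusted p = 0.169, 0.115 and 0.210, edgeR), though with a replicate block Ggt5 was called lower (adjusted p = 0.0334, edgeR).

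Other measures moved with this comparison. The marker sums of several cell types did not overlap between the groups, with fibroblast markers at 6575 to 7822 CPM in CD5L KO and 8334 to 10230 CPM in WT kidneys (26 of 61 called lower), myofibroblast markers at 5897 to 7494 against 8086 to 11498 CPM (17 of 23 called lower) and endothelial markers at 3725 to 4019 against 4378 to 4834 CPM (20 of 66 called lower). Podocyte sums, at 3126 to 3411 against 3419 to 3648 CPM (8 of 55 called lower), were also apart. Urothelial markers were at 2576 to 2810 CPM in CD5L KO and 1855 to 2422 CPM in WT kidneys (1 of 22 called higher), while the proximal tubule sums, at 4674 to 7984 and 4969 to 8849 CPM, overlapped, as did the macrophage sums (8777 to 13222 against 10030 to 12856 CPM) and those of B and T cells (1168 to 1489 against 1333 to 1597 CPM). Of the study's acute-injury proximal tubule markers, 5 of 52 were called higher and 1 lower, with 26 above 0. Among its injured proximal tubule markers 1 of 25 was called higher, with 19 above 0, and the sums of both lists overlapped. No marker of these lists was at 0 in all kidneys, and their part in the 7 differences was not tested.

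Fold changes in this comparison also fell with gene length (Spearman -0.277 across 17579 genes, a description only, since genes share the same libraries). The tested members were short, at a median of 1922 bases where all tested genes had 3808. With a length trend removed as an offset, Mgst1, Glrx and Gstt1 were called, 7.89% of the members tested against 7.42% of all genes (1305 of 17579; 3.88% called higher), a share near that of all genes. The fold changes of the other 4 were then 0.45 for Gsta4, 0.28 for Gstm5, 0.15 for Glo1 and 0.11 for Mgst3. With all 19 kidneys in 1 fit, 0 members and 12 of 18454 genes were called.

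Promoters of the called members were searched for the core of the antioxidant response element, TGACNNNGC on either strand, in RefSeq windows of 300 bases (250 before to 50 after the start of transcription, GRCm38.p6). Windows were found for 35 of the 40 members and 7 of these held the motif, which is 20% against 14.0% of all 27025 genes with a window. Of the 7 called members, Mgst1 and Gstm5 had a match, Glrx, Mgst3, Gstt1 and Glo1 had none in their windows, and Gsta4 had no window. The sequences below, in gene orientation, show both matches, the window of Gstt1, called without a match, and that of Gsta3, which had the lowest fold change with rCD5L in WT mice among members with mean log2 CPM of 1 or more; capitals mark the motif. In Mgst1 (chr6:138140277-138140576, plus strand) it starts at -56 and reads on the opposite strand, in Gstm5 (chr3:107895604-107895903, plus strand) it starts at -42, and in Gsta3 (chr1:21240335-21240634, plus strand) at -121, whereas the Gstt1 window is chr10:75797682-75797981 on the minus strand.
Mgst1: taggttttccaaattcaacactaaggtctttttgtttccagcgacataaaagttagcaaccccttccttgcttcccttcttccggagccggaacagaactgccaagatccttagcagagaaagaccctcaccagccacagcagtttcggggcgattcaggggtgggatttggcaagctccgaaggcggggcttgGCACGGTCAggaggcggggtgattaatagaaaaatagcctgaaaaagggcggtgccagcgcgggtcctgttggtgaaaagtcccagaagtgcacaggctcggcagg
Gstm5: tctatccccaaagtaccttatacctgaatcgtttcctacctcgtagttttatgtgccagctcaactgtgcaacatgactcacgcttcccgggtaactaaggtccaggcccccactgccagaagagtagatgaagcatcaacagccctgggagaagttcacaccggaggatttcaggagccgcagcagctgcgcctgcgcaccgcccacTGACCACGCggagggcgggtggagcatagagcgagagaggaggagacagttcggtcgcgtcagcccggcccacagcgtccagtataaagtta
Gstt1: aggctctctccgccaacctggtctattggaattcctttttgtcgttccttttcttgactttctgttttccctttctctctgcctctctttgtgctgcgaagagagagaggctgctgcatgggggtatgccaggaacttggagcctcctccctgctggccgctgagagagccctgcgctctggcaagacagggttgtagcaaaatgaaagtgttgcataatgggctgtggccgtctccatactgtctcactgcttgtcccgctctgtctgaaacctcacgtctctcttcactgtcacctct
Gsta3: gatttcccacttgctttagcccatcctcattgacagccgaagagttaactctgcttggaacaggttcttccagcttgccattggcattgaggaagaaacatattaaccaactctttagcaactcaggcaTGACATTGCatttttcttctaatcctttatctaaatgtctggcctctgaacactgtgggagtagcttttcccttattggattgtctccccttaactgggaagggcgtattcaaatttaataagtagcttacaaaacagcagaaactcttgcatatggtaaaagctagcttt
A match of 9 letters is a description of the sequence, found in 12.4% of all windows, and no binding was measured here.

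Giving rCD5L to CD5L KO mice changed no member past the threshold. The smallest adjusted p among the 37 members tested was 0.897 (edgeR), and 0 of 17467 genes were called (0%). At an unadjusted p under 0.05 there were 3 members, Gsta4, Mgst1 and Mgst2, all with lower values after rCD5L (1.47% of all genes were lower and 1.4% higher at that level), and DESeq2 called 0 members. This group includes kidney 4, and the spread was wide, with a median coefficient of variation over 34 members of 35.5%, against 10.4% in the PBS-injected CD5L KO group. Without kidney 4 it was 19.4%.

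Kidney 4 differed from its group in most members. Of the 34 members with mean log2 CPM of 1 or more, it was above all 18 other kidneys in 21, below all of them in 5 and within their range in 8. The same share over all genes was not counted, so these counts cannot be read as a trait of the members. The 5 largest ratios were those of Ggt1 at 1676 CPM, 7.20 times the median of the other 4 kidneys of its group, Gstz1 at 466 CPM (5.98 times), Gsta3 at 177 CPM (5.84 times), Ggct at 66.6 CPM (4.33 times) and Gstk1 at 90.3 CPM (4.19 times). The proximal tubule marker sum was 8.43 times the median of those 4 kidneys.

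Other members did not follow. In kidney 4, Mgst1 was 0.896 times, Gsta4 1.05 times, Gsta2 1.12 times and Gstm2 0.996 times the median of the rest of the group. Gsto1, Gstp3, Gstm6, Ggt7 and Ggt5 were below all other kidneys, with ratios of 0.653, 0.488, 0.396, 0.372 and 0.357, beside a fibroblast marker sum that was 0.404 times and a macrophage marker sum that was 0.357 times the median. The part of the cell mixture in these ratios was not tested. In kidney 3, Ggt1 reached 611 CPM and Oplah, which returns 5-oxoproline to glutamate, 362 CPM, which were 2.67 and 2.45 times the median of kidneys 1, 2 and 5.

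**Figure D3:**
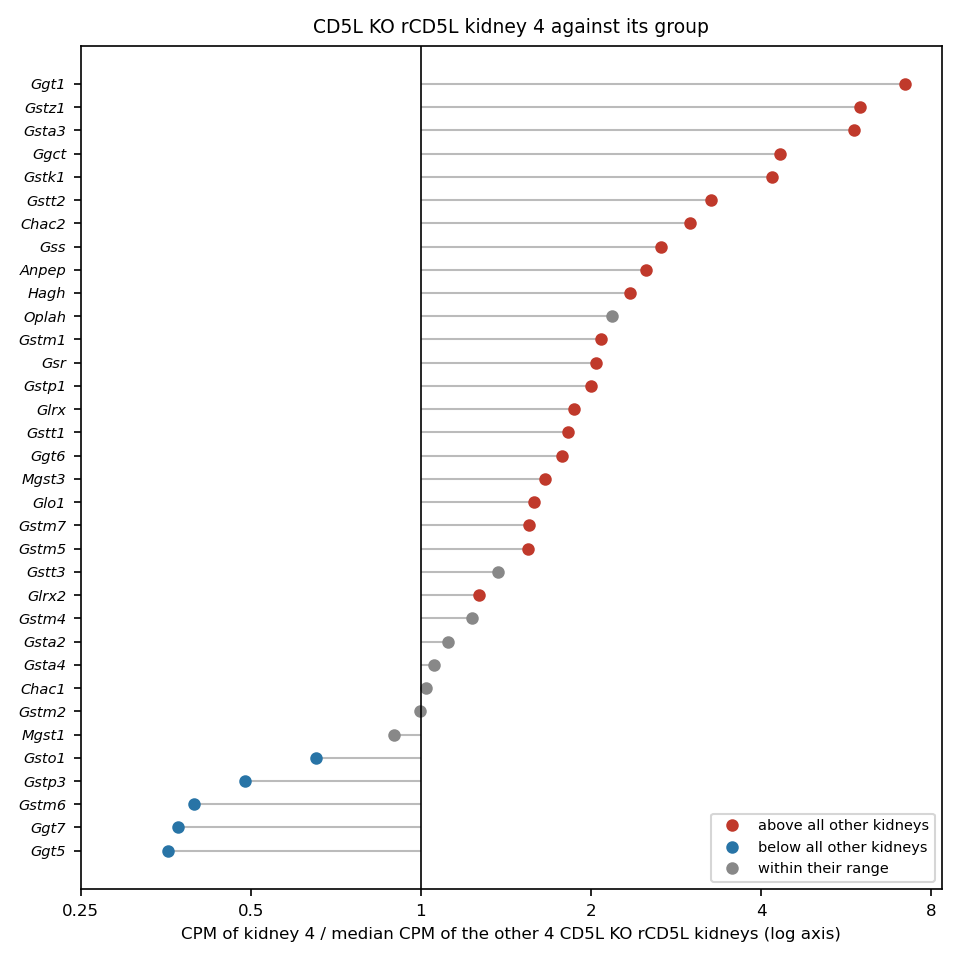
CPM of kidney 4 of the rCD5L-injected CD5L KO group divided by the median CPM of the other 4 kidneys of that group, on a log axis, for the 34 members with mean log2 CPM of 1 or more. Red points (21) are above, and blue points (5) below, all 18 other kidneys; Ggt1 stands at 7.20, Mgst1 at 0.896 and Ggt5 at 0.357.

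**Figure D4:**
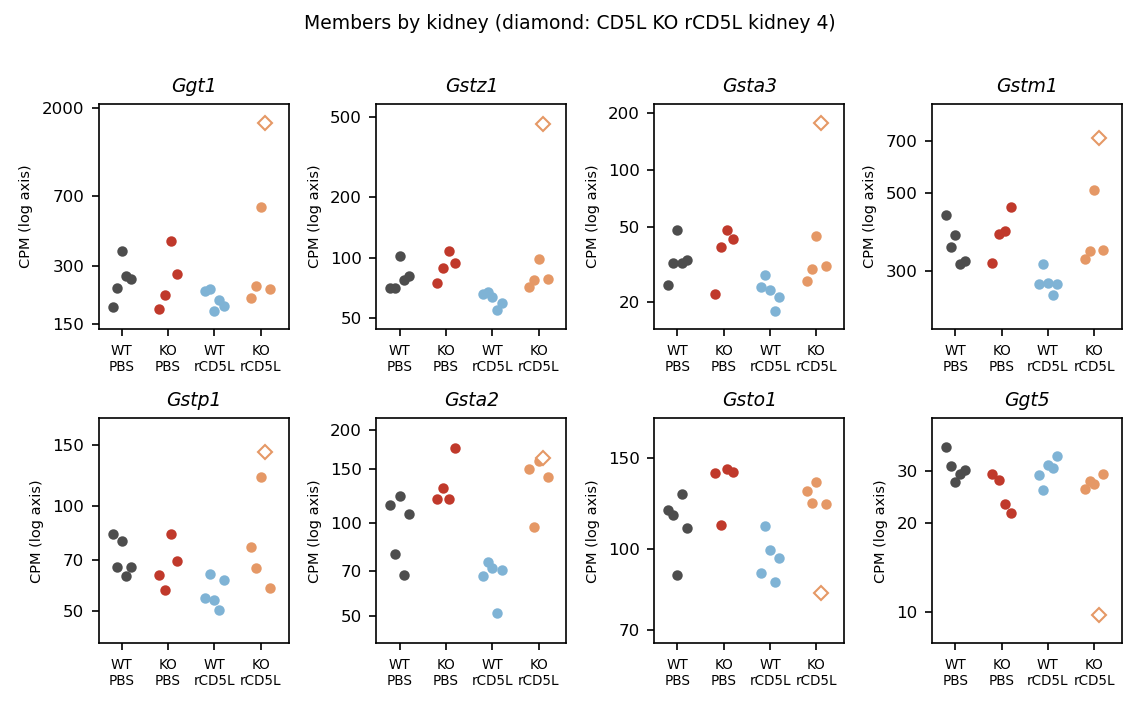
CPM on log axes of 8 members in each kidney of the 4 groups, with kidney 4 of the rCD5L-injected CD5L KO group as an open diamond. The diamond is the highest point for Ggt1, Gstz1, Gsta3, Gstm1 and Gstp1, lies among the others for Gsta2, and is the lowest for Gsto1 and Ggt5; without it the CD5L KO kidneys given rCD5L overlap those given PBS in all 8.

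The 3 largest positive fold changes with rCD5L in CD5L KO mice were much smaller or negative without that kidney. Ggt1 had 206, 237, 611, 1676 and 229 CPM after rCD5L and 179.7, 214, 407 and 273 CPM after PBS, a log2 fold change of 1.17 ± 0.64 (adjusted p = 0.897, edgeR). It was 0.27 without kidney 4 and -0.25 without kidneys 3 and 4. Gstz1 had 71.1, 77.5, 98.2, 466 and 78.3 CPM against 74.3, 88.3, 108 and 94.3 CPM, with 0.82 ± 0.57, and -0.16 without kidney 4. Gsta3, with 25.8, 29.8, 44.7, 177 and 30.9 CPM against 22.1, 39.3, 47.9 and 43.2 CPM, had 0.72 ± 0.58, and -0.20 without it. In each of the 3 genes the groups overlapped apart from kidney 4. The median over the 37 members was 0.22 (28 above 0, or 75.7%), against 0.02 over all genes (53.5% above 0), and turned to -0.03 without kidney 4 (15 above 0) and to -0.11 without kidneys 3 and 4 (8 above 0).

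Mgst1 and Gsta4 had lower values with rCD5L that did not rest on kidney 4. With rCD5L, Mgst1 measured 140.0, 125, 141, 122 and 133 CPM, all below the 145 to 187 CPM of the CD5L KO kidneys given PBS (log2 fold change -0.31 ± 0.12, adjusted p = 0.897, edgeR). Gsta4 measured 59.2, 50.7, 52.6, 56.3 and 54.3 CPM, below the 59.7 to 77.5 CPM with PBS (-0.27 ± 0.11, adjusted p = 0.897, edgeR). The same separation downward was found in 1.35% of all genes, and upward in 0.99% of genes and 0 members. Without kidney 4, Glo1 and Gstm5 also separated downward (4 members in all, against 2.93% of genes), and without kidneys 3 and 4 there were 7 (against 6.04%). Without kidneys 3 and 4 the fold changes of Mgst1 and Gsta4 were -0.31 and -0.28. Mgst2, a low gene, also had an unadjusted p under 0.05, with -0.99 ± 0.42 (-0.80 without kidney 4 and -0.56 without kidneys 3 and 4) and overlapping groups. Urothelial markers had the same direction, with 20 of 22 below 0 (median -0.42) and 4 at an unadjusted p under 0.05, and with 19 below 0 (median -0.31) without kidney 4; their part was not tested. Mgst1 and Gsta4 were also among those called in CD5L KO against WT given PBS, but both comparisons use the same 4 CD5L KO kidneys given PBS, so the opposite signs are not independent. The lowest fold change among members with mean log2 CPM of 1 or more, that of Gstm6 (-0.38 ± 0.26), was -0.21 without kidney 4, where Gstm6 had 2.49 CPM.

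Giving rCD5L to WT mice was followed by small negative fold changes of most members, none of which was called. Of 37 members tested, 32 were below 0, with a median of -0.20 against 0.00 (0.0046) over all genes, where 51.3% were above 0. At an unadjusted p under 0.05 there were 15 members, 40.5% of those tested, all lower, against 7.71% of all genes in that direction and 8.31% in the other. The smallest adjusted p was 0.109, for Gstm1, and edgeR called 0 of 17455 genes (0%). DESeq2 called 7 members (Gss, Gsta3, Gstm1, Gstp1, Gstt2, Gstz1 and Mgst3) and edgeR without a filter on low counts called 5 (Gsta2, Gsta3, Gstm1, Gstp1 and Gstz1), all lower. These were 21.9% of members against 3.82% of genes with DESeq2, and 12.5% against 0.43% without the filter. On counts simulated for this comparison, 9.90% of the DESeq2 calls were false, against 4.28% of the edgeR calls. Fold changes in this comparison rose with gene length (Spearman 0.240 across 17455 genes), and with the length offset 0 members were called and the median of the members was -0.13.

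Gstm1, the most abundant member, was among the 15. It had 276, 314, 277, 257 and 275 CPM with rCD5L and 434, 352, 380.0, 314 and 322 CPM with PBS. The groups overlapped by a single kidney of each, and the log2 fold change was -0.35 ± 0.084. Gsta2 had 67.6, 75.0, 71.4, 51.1 and 70.6 CPM against 115, 79.2, 123, 67.9 and 107 CPM (-0.54 ± 0.15, adjusted p = 0.121, edgeR). Only WT kidney 4 of the PBS group fell within the rCD5L range. Gsta3 had 24.2, 27.9, 23.3, 18.0 and 21.4 CPM against 24.7, 32.4, 48.1, 32.0 and 33.2 CPM (-0.55 ± 0.15, adjusted p = 0.121, edgeR).

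Without overlap were Gstz1, at 54.9 to 67.0 CPM with rCD5L and 70.3 to 102 CPM with PBS, Hagh, at 73.7 to 80.9 against 81.5 to 109 CPM, and Mgst3, at 60.0 to 75.9 against 77.1 to 87.2 CPM. Their log2 fold changes were -0.35 ± 0.094, -0.20 ± 0.072 and -0.24 ± 0.066. The 3 members were 8.11% of those tested, against 2.11% of all genes that separated downward, and 0 members separated upward against 1.47%. Ggct, the gamma-glutamyl cyclotransferase, had -0.37 ± 0.14, and the largest positive values were small, 0.15 ± 0.14 for Ggt7, 0.10 ± 0.059 for Anpep, the brush-border aminopeptidase N, and 0.09 ± 0.11 for Gstm4.

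The proximal tubule markers had the same direction in these kidneys. Their sum was 4288 to 5947 CPM with rCD5L and 4969 to 8849 CPM with PBS, 45 of 49 had negative fold changes and 28 had an unadjusted p under 0.05, all lower, with 0 called. Fold changes were above 0 for 50 of 59 macrophage markers, 49 of 56 B and T cell markers, 50 of 61 fibroblast markers and 39 of 45 principal cell markers, with 0 called in each list. Below 0 were 21 of 22 urothelial markers (1 at an unadjusted p under 0.05), 19 of 25 of the study's injured and 36 of 52 of its acute-injury proximal tubule markers (6 and 10 under 0.05, lower) and 5 of 6 androgen-dependent kidney genes (4 under 0.05). The part of this in the members' values was not tested. WT kidney 3 of the PBS group, the highest for Ggt1, Gsta3, Gstz1, Ggct and Hagh, was retained, and without it the median of the members was -0.14.

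Between CD5L KO and WT kidneys that both received rCD5L, no member was called and most were higher in CD5L KO. The median over 37 members was 0.55 against -0.01 over all genes, 32 were above 0, and 20 had an unadjusted p under 0.05 in that direction (54.1% of those tested, against 11% of all genes), with 0 members and 6.8% of genes in the other. Without kidney 4, 32 were above 0 and 19 were under 0.05 (8.82% of genes), and without kidneys 3 and 4 these were 28 and 17 (10.8%). The smallest adjusted p was 0.191, for Gsta2, and 0 of 17360 genes were called (0%); DESeq2 called Gsta2 alone among the members. A fit of all 19 kidneys called 15 members, all higher (39.5%, against 7% of all genes). The 3 largest fold changes were those of Ggt1 (1.56 ± 0.55), Gsta3 (1.44 ± 0.51) and Gstz1 (1.37 ± 0.51). Much of their size rests on kidney 4 of the CD5L KO group, since they were 0.65, 0.50 and 0.38 without it. All 3 still had an unadjusted p under 0.05 without kidney 4, and Gsta3 and Gstz1 also without kidneys 3 and 4 (edgeR). The median was 0.32 without kidney 4 and 0.18 without kidneys 3 and 4. Fold changes fell with gene length here as well (Spearman -0.276 across 17360 genes). With the length offset 0 members were called and the median of the members was 0.44. Among members with mean log2 CPM of 1 or more, the lowest were Gstm6 (-0.36 ± 0.24), Ggt5 (-0.34 ± 0.23) and Ggt7 (-0.21 ± 0.30). Kidney 4 was the lowest of all 19 for these 3, whose fold changes were -0.19, -0.14 and -0.013 without it and -0.08, -0.13 and -0.25 without kidneys 3 and 4.

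Gsta2 differed most clearly here. It measured 150.2, 97.5, 159, 163 and 141 CPM in CD5L KO and 67.6, 75.0, 71.4, 51.1 and 70.6 CPM in WT kidneys. The groups did not overlap and the log2 fold change was 1.08 ± 0.16. It was 1.01 (adjusted p = 0.0541, edgeR) without kidney 4 and 0.94 (adjusted p = 0.0101, edgeR) without kidneys 3 and 4. In that last setting 6 members were called (16.2%, against 3.58% of all genes, 644 of 18012), all higher in CD5L KO, namely Gsta2, Gstm1, Gstm5, Gsto1, Gstt1 and Mgst1, with fold changes of 0.94, 0.26, 0.34, 0.36, 0.36 and 0.28.

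With all 5 kidneys in each group, 9 members separated upward (Chac2, Glrx, Gsta2, Gstm1, Gstm5, Gstt1, Gstz1, Hagh and Mgst1), 24.3% of those tested against 4.29% of all genes, and 0 separated downward against 3.09%. Without kidney 4 there were 10 (against 4.93%) and without kidneys 3 and 4 there were 11 (against 8.28%). Mgst1 was at 122 to 141 CPM in CD5L KO and 96.3 to 114 CPM in WT kidneys, and Gstt1 at 115 to 222 against 88.4 to 97.7 CPM. This comparison and CD5L KO against WT given PBS have no kidney in common. Of the 7 members called with PBS, all 7 had positive fold changes with rCD5L, as did 32 of the 37 members tested, from 0.28 ± 0.093 for Mgst1 to 0.67 ± 0.18 for Gstt1. Several were smaller without kidney 4 and without kidneys 3 and 4, namely Gstt1 (0.46 and 0.36), Mgst3 (0.59 with all kidneys, then 0.41 and 0.29), Glrx (0.57, then 0.32 and 0.27), Gstm5 (0.55, then 0.37 and 0.34) and Glo1 (0.33, then 0.16 and 0.20), while Mgst1 (0.29 and 0.28) and Gsta4 (0.57, then 0.55 and 0.57) moved little. Fibroblast markers summed to 3229 to 8591 CPM in CD5L KO kidneys (6608 to 8591 without kidney 4) and to 9168 to 11202 CPM in WT kidneys. Proximal tubule markers summed to 5440 to 48198 CPM (5440 to 7904 without kidney 4) against 4288 to 5947 CPM. Of the 49 proximal tubule markers 48 were above 0 and 34 had an unadjusted p under 0.05, all higher, and without kidney 4 these were 41 and 21 higher with 1 lower. Urothelial markers were above 0 in 17 of 22 (20 without kidney 4). Below 0 were 23 of 23 myofibroblast, 60 of 61 fibroblast, 54 of 59 macrophage, 51 of 56 B and T cell, 58 of 66 endothelial and 46 of 55 podocyte markers, and without kidney 4 these were 21, 60, 48, 47, 58 and 47. No marker of these lists was called with all kidneys. Without kidneys 3 and 4, where 6 members and 3.58% of all genes were called, markers were called as well. These were 19 of 66 endothelial, 18 of 61 fibroblast, 8 of 23 myofibroblast and 6 of 55 podocyte markers. Of the others, 5 of 49 proximal tubule, 4 of 59 macrophage, 2 of 56 B and T cell and 0 of 22 urothelial markers were called. The part of these lists in the members' values was not tested.

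**Figure D5:**
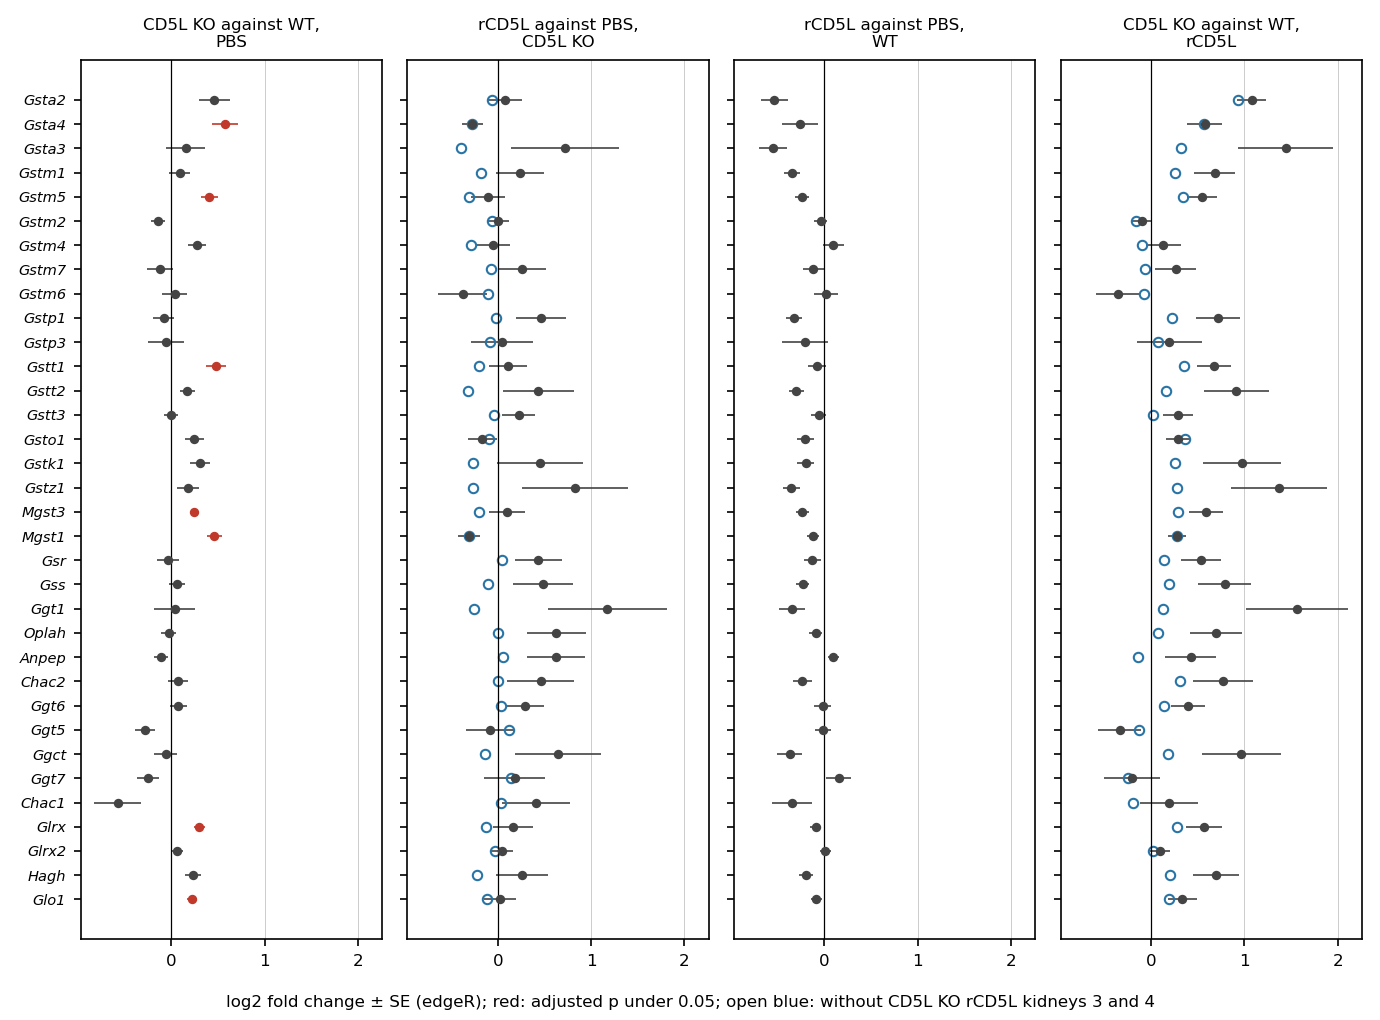
Log2 fold change ± SE from edgeR for the 34 members with mean log2 CPM of 1 or more in the 4 comparisons of 2 groups; red points have an adjusted p under 0.05 and open blue circles show the value without kidneys 3 and 4 of the rCD5L-injected CD5L KO group. The 7 red points are all in the first panel; in the second panel the circles lie near or below 0, and in the third most points lie left of 0.

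The interaction asks whether the effect of rCD5L differed between the genotypes. No member was called (smallest adjusted p = 0.731, edgeR; 0 of 18454 genes, 0%; DESeq2 also 0), and 8 of the 38 tested had an unadjusted p under 0.05, all with a higher value of the difference in CD5L KO (21.1%, against 4.41% of all genes, and 1.84% in the other direction). Without kidney 4 only Gstp1 and Gsta2 stayed under 0.05 (2.95% of genes), and without kidneys 3 and 4 no member did (2.69%). The members with the smallest p-values were Gstp1, a pi-class transferase, and Gsta2. Gstp1 had 76.3, 66.3, 121, 143 and 58.1 CPM with rCD5L and 57.4 to 82.8 CPM with PBS in CD5L KO, and 50.4 to 63.9 against 63.1 to 83.3 CPM in WT mice. The log2 difference of the effects was 0.81 ± 0.29 for Gstp1 and 0.63 ± 0.25 for Gsta2. Without kidneys 3 and 4 these were 0.31 ± 0.16 and 0.48 ± 0.25, and the median over the members was 0.34 with all kidneys, 0.18 without kidney 4 and 0.03 without kidneys 3 and 4. Without kidney 4 alone, the differences were 0.57 for Gstp1 and 0.55 for Gsta2. Values were above 0 for 33 of the 38 members, against 53% of all genes, but for 28 without kidney 4 (50.7%) and for 20 without kidneys 3 and 4 (50.4%). The proximal tubule markers had the same direction, with 48 of 49 above 0 (median 1.31) and 29 at an unadjusted p under 0.05, all higher, while 51 of 59 macrophage and 50 of 56 B and T cell markers were below 0. Without kidney 4 these were 40 of 49 (median 0.33, 4 under 0.05), 39 of 59 and 43 of 56, and without kidneys 3 and 4 they were 42 (median 0.18, 1 under 0.05), 32 and 36. The part of these lists was not tested.

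The other genes of the pathway, taken from lists of 38 genes, had 0 called in each of the 5 comparisons with all kidneys. Without kidneys 3 and 4, 1 of them, the cystine transporter subunit Slc3a1, was called in CD5L KO against WT given rCD5L, which is 1 of 38 where 3.58% of all genes were called. In CD5L KO against WT given PBS, 15 were above 0 and 23 below, with a median of -0.02. Among the 12 genes of glutathione synthesis and cysteine supply, Gclc, the catalytic subunit of the rate-limiting enzyme, had -0.24, Gclm, its modifier subunit, 0.09, and Slc7a11, the cystine importer, -0.08. An unadjusted p under 0.05 was found for 2 of these 12, both higher in CD5L KO, namely the cystine transporter subunits Slc3a1 (0.33 ± 0.12) and Slc7a9 (0.22 ± 0.073). At that level 0 were higher and 1 lower of 8 peptidase and mercapturate genes, 0 and 1 of 8 transport genes, and 1 and 2 of 10 NADPH and regulator genes. Over all genes 12.6% were higher and 14% lower, so nothing about the pathway can be read from these counts. Of the Nrf2-related and NADPH genes, Nqo1 had 0.14 and Hmox1 -0.30. With rCD5L in WT mice 34 of the 38 were below 0 (median -0.16), and with rCD5L in CD5L KO mice 36 were above 0 (median 0.52). The latter became 26 above 0 with a median of 0.12 without kidney 4, and 16 above 0 with a median of -0.05 without kidneys 3 and 4. In kidney 4 of that group, the 12 synthesis genes summed to 4006 CPM against 995 to 1684 in the other 18 kidneys, and the 8 peptidase and mercapturate genes, such as Dpep1, Acy1 and Nat8, to 6323 against 949 to 2047.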

How the data were processed

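Bulk RNA-seq of 19 obstructed kidneys was used. Per the sources, the authors isolated RNA with a RIN of at least 7, made random-hexamer libraries, trimmed reads with Trimmomatic, aligned them to GRCm38/mm10 with HISAT2 and deposited raw counts per gene from featureCounts, with FPKM values beside them. Versions, strand setting, the handling of reads with several matches and the library size behind FPKM are not given in the sources used here.

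Groups came from the sample labels. Counts were tested in R 4.3.3 with the quasi-likelihood test of edgeR 4.0.16, with TMM factors, filterByExpr at a minimum count of 10, only the groups compared in the fit (all 19 kidneys for the interaction) and Benjamini-Hochberg adjustment over all genes tested, with 0.05 as threshold. SE is the standard error of the log2 fold change. The authors tested with DESeq2. FPKM served for levels between genes. Alternatives were DESeq2 1.42.0, RLE factors, other count filters, a gene-length offset, all 19 kidneys, a replicate block, limma 3.58.1 on log2(FPKM + 1) or log2(FPKM + 0.1), and each kidney left out; leaving out kidneys 3 and 4 together was chosen after seeing the data.

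On counts simulated for CD5L KO against WT given PBS (17579 genes, 200 changed), edgeR recovered 82% of log2 changes of 1 and 96% of changes of 2, and for rCD5L in CD5L KO mice (17467 genes) 39% and 83%. Smaller changes, such as those of the called members, were not simulated, so these rates do not cover them. Of the DESeq2 calls, 9.90% (rCD5L in WT mice) to 19.1% (CD5L KO against WT given rCD5L) were false, against 3.55% to 5.32% with edgeR. A count of 0 allows up to 3 counts, which covers counting error only. Same-group kidneys differed by more than sampling noise in all 36 pairs.

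The members and all lists were chosen with earlier results of these data known. Members named with values were those called, the 3 largest rises and falls of each comparison of 2 groups among members whose mean log2 CPM was 1 or more, the most abundant member of each family and the 2 smallest p-values of the interaction; other members were named after their values were seen. Cell type markers came from the study's list, except epididymis and androgen-dependent genes.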

Additional observations from a re-analysis of the deposited data

Results flagged for a closer look

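In 13 of 96 groups, formed by 24 named members in 4 groups of 4 or 5 kidneys, the highest or lowest kidney lay far from the rest by Dixon's test at the 95% level. Chance gives about 1 in 20 groups, or 4.8 here, and values of 1 kidney are not independent.

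Kidney 4 of the CD5L KO mice given rCD5L gave 10 of the 13. It was the high value for Ggt1 (1676 CPM), Gstz1 (466 CPM), Gstm5 (195 CPM), Gsta3 (177 CPM), Glo1 (153 CPM), Gstk1 (90.3 CPM), Ggct (66.6 CPM) and Glrx (58.3 CPM), and the low value for Gsto1 (82.4 CPM) and Ggt5 (9.82 CPM).

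The other 3 were the low Gsto1 value of CD5L KO kidney 2 given PBS (111 CPM), the high Hagh value of WT kidney 3 given PBS (109 CPM) and the low Mgst1 value of WT kidney 5 given rCD5L (96.3 CPM).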

How the results depend on the processing

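Of the 7 members called for genotype in PBS-injected mice, 3 were called with the gene-length offset (Mgst1, Glrx and Gstt1; 7.89% of members, against 7.42% of all genes) and 0 with all 19 kidneys in 1 fit, where 12 genes were called in all against 1850, and the cause was not tested. Leaving out 1 kidney gave 5 to 8 called members and 1015 to 2062 called genes; Glo1 was lost in 6 of these 9 fits (without CD5L KO kidneys 1, 2 or 3 or WT kidneys 2, 4 or 5), Gsta4 in 2 (without CD5L KO kidneys 2 or 4) and the other 5 in none, and without CD5L KO kidney 3 Gstp2 was called lower.

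With rCD5L in WT mice, 0 members were called by edgeR, 7 by DESeq2 (508 of 13314 genes) and 5 with no count filter (137 of 31830 genes). For CD5L KO against WT given rCD5L, 0 were called, against 1 with DESeq2 (64 of 16528 genes), 15 with all 19 kidneys (1291 of 18454), 6 without CD5L KO kidneys 3 and 4 (644 of 18012), and 0 to 1 with 1 kidney left out. Without kidneys 3 and 4 the median log2 fold change of the members was 0.18 there, -0.11 for rCD5L in CD5L KO mice (-0.031 to 0.28 with 1 kidney left out) and 0.031 for the interaction.

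Signs turned for rCD5L in CD5L KO mice, where leaving out kidneys with high member levels lowers fold changes by construction. Without kidneys 3 and 4 the log2 fold changes were -0.25 for Ggt1, -0.12 for Glo1, -0.13 for Glrx, -0.39 for Gsta3, -0.21 for Gstt1, -0.26 for Gstz1 and -0.20 for Mgst3, and on the FPKM scale Glo1 had -0.013 with either pseudocount. With 1 kidney left out they ran from -0.15 to 0.084 for Glo1, -0.076 to 0.25 for Glrx, -0.20 to 0.92 for Gsta3, -0.093 to 0.19 for Gstt1, -0.16 to 1.01 for Gstz1 and -0.066 to 0.20 for Mgst3. In WT mice Gstm4 ran from -0.0058 to 0.15 and Gstt1 from -0.16 to 0.012.

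With the replicate block, 9 members (2132 of 17579 genes) were called in CD5L KO against WT given PBS, with Hagh added higher and Ggt5 added lower, and 0 in the other comparisons. Deviations of same-numbered kidneys correlated at 0.017 to 0.174 for rCD5L in CD5L KO mice, where 3 of 4 exceeded 0.1, at -0.049 to 0.117 for CD5L KO against WT given PBS, and below 0 in the other 2 comparisons. In no comparison did every pair exceed 0.1, so the numbers were not taken as pairs. The spread within CD5L KO mice given rCD5L limits what could be detected there.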

Other observations

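The genes of the mouse kidney known to depend on androgen, a list of 6, summed to 42868 CPM in kidney 4 of the rCD5L-injected CD5L KO group and to at most 7309 CPM in the other 18 kidneys, and all 6 were highest in kidney 4. Cyp4b1 and Slc22a30 of this list are also in the proximal tubule list, where 48 of 49 markers were highest in kidney 4. The lists are therefore not independent. The 15 epididymis markers, of which 3 were at 0 counts in all kidneys, summed to 10.99 to 62.8 CPM in the other 18 kidneys and to 41.2 CPM in kidney 4.

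Genes of the failed-repair proximal tubule list went the other way in that kidney, with a sum of 3731 CPM against 6140 to 8417 CPM in the other 18, and the thick ascending limb markers summed to 2884 CPM against 966 to 1496 CPM.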
